A study of Mus musculus with 23 samples.

Results

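The 10 genes described here encode the core of transforming growth factor beta (TGF-beta) signalling in mouse heart: the ligands Tgfb1, Tgfb2 and Tgfb3, the receptors Tgfbr1, Tgfbr2 and Tgfbr3, and the intracellular mediators Smad2, Smad3, Smad6 and Smad7. They were chosen by name as the members of this signalling chain, with earlier results of these data known. All 10 were measured, among 21892 genes with a symbol on the arrays. Ventricle RNA of 23 male mice was hybridised, 1 mouse per 2-colour array, against a common reference pooled from 5 tissues (spleen, kidney, liver, brain and heart), so each value is the log2 ratio of heart over that pool. Ctrl mice (n = 5) were non-transgenic and untreated, and Ctrl-Aldo mice (n = 5) were non-transgenic mice given aldosterone, the adrenal hormone that binds the mineralocorticoid receptor. MR-Cardio mice (n = 7) carried a transgene that overexpresses the mineralocorticoid receptor in cardiomyocytes, without treatment, and MR-Cardio-Aldo mice (n = 6) carried it and received aldosterone. The labels give a treatment duration of 7 days for all 4 groups. The promoter of the transgene, the number of founder lines, the strain, the age and the aldosterone dose are not stated in the sources read.

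TGF-beta ligands are secreted in latent form, held in the matrix by binding proteins, and become active when they are released. The active ligand binds Tgfbr2, which recruits and phosphorylates Tgfbr1, and Tgfbr1 then phosphorylates Smad2 and Smad3, which enter the nucleus and control transcription. Tgfbr3 (betaglycan) presents ligand, Tgfb2 in particular, to the signalling receptors, while Smad6 and Smad7 are inhibitory Smads, themselves induced by signals of this family. In heart the pathway is best known for its part in fibroblast activation and scar formation.

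The ratio of Nr3c2, the gene of the mineralocorticoid receptor, was 0.43 ± 0.14 (SD, n = 5) in Ctrl, 0.22 ± 0.17 (n = 5) in Ctrl-Aldo, 3.21 ± 0.72 (n = 7) in MR-Cardio and 3.97 ± 0.85 (n = 6) in MR-Cardio-Aldo hearts, and no transgenic heart overlapped a control. Cardiomyocyte markers lay well above the reference pool in every group, with a mean ratio of 8 markers between 1.15 and 2.18 over all mice. On 5 arrays the mean ratio of the 10 spike-in RNA controls lay more than 0.3 below the average of all arrays, and these were MR-Cardio mice 3, 4 and 7 and MR-Cardio-Aldo mice 4 and 6, so differences of members and counts of gene groups are also given without these 5 arrays, a setting chosen after the data had been seen. The slope of the spike-in ratios was 0.964 to 0.982 on the arrays of non-transgenic mice and 1.003 to 1.029 on those of transgenic mice. All 8 liver markers, which show the reference pool, had lower ratios in MR-Cardio than in Ctrl hearts, with a median difference of −0.80. All 8 were also lower under aldosterone, with a median difference of −0.78. Their mean ratio ran from −5.20 to −4.66 in transgenic and from −4.05 to −3.84 in non-transgenic hearts. Dividing each array by its slope left the calls of the 10 members as they were in all 5 comparisons. With slopes this close together, that step changes each ratio little. The part of an array or reference difference between genotypes in the members was not tested. Blank spots gave ratios from −0.59 to 0.07, and the ratios of Tgfb1 and of Tgfbr2 in non-transgenic hearts lay in or near that range. Signal over background was not used here, so whether a weak gene was detected is unknown.

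The sequences upstream of 4 members are shown because Tgfb2, Tgfbr1 and Tgfbr2 rose in MR-Cardio hearts in at least 1 comparison, while Tgfb1 did not. They are the 250 bases before the RefSeq start of each gene, written 5′ to 3′ on the strand of the gene in build GRCm38.p6. Capitals mark matches on either strand to CAGAC, the Smad binding element, TATAAA, the TATA box, GGGCGG, the GC box, and CACGTG, the E-box.
Tgfb2: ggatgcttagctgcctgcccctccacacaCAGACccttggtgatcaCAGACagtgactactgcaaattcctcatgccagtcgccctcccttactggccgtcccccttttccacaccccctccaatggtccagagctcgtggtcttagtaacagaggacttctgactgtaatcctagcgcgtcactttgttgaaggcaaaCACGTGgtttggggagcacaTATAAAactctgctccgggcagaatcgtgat
Tgfbr1: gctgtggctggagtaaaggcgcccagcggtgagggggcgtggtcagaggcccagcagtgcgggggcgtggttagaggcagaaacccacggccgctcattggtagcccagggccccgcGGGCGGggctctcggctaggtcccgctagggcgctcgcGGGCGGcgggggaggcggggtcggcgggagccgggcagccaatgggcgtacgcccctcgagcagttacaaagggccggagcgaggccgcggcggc
Tgfbr2: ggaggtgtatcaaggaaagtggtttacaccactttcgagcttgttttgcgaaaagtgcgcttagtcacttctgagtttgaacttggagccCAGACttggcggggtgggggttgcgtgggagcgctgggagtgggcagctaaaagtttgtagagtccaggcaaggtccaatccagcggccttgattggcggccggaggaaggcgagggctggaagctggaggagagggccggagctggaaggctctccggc
Tgfb1: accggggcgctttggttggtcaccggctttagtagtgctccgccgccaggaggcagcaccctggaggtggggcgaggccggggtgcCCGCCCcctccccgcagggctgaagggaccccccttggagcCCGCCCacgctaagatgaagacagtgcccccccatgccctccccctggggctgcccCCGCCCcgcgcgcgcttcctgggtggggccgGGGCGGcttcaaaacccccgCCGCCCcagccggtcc

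The Tgfb2 sequence is chr1:186705990-186706239 on the minus strand, with 2 CAGAC matches, 1 CACGTG and 1 TATAAA. The Tgfbr1 sequence, upstream of the first of its listed starts, is chr4:47352972-47353221 on the plus strand and holds 2 GGGCGG matches. The Tgfbr2 sequence is chr9:116175364-116175613 on the minus strand and holds 1 CAGAC match. The Tgfb1 sequence is chr7:25686752-25687001 on the plus strand and holds 5 GGGCGG matches, which appear as CCGCCC where the match is on the other strand. The G and C content was 75.2% for Tgfb1 and 74.8% for Tgfbr1, against 58.4% for Tgfbr2 and 53.6% for Tgfb2, and a median of 52.4% over all listed promoters. Of 32851 mouse promoters of the same length, 42.2% held CAGAC, 32.7% GGGCGG, 12.4% TATAAA and 6.02% CACGTG, so the first 2 are common letters. AGAACA, 1 arm of the element bound by the mineralocorticoid and glucocorticoid receptors, was in 16.1% of all promoters and matched none of these 4. Among promoters not shown, it had 1 match in Smad6 and 0 in Smad3. The other listed start of Tgfbr1 held 1 CAGAC match and 0 AGAACA. No match overlapped another in the 4 windows shown.

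Without aldosterone, 3 of the 10 members rose in MR-Cardio hearts and 0 fell. The receptors Tgfbr1 and Tgfbr2 rose by 1.83-fold and 1.48-fold, and the ligand Tgfb3 by 1.91-fold. None of the 4 Smads and neither Tgfb1, Tgfb2 nor Tgfbr3 passed the test. Over all genes 13.6% passed, 5.79% in the higher direction and 7.82% in the lower (limma, Benjamini-Hochberg adjusted p under 0.05). When the 5 arrays of low spike-in ratio were left out, 2 members rose, Tgfbr1 and Tgfbr2, and 4.96% of all genes passed, 1086 in place of 2978. In bulk ventricle, more cells of a type and more RNA per cell cannot be told apart.

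Tgfb3, a ligand known in mice for its need in palate development, read 1.10, 1.15, 1.31, 1.18 and 1.05 in the Ctrl hearts. In MR-Cardio hearts it ran from 1.20 through a median of 2.46 to 3.10. Mice 3, 4, 5 and 7 stood high at 2.46 or above, whereas mice 1, 2 and 6 lay between 1.20 and 1.37, next to the controls. The difference was 0.93 ± 0.29 (log2, SE; adjusted p = 0.0361, limma), with 5 of 7 MR-Cardio hearts above every Ctrl heart. Leaving out 1 mouse at a time ended this call in 9 of 12 fits, with adjusted p up to 0.0782, and without the 5 arrays of low spike-in ratio the difference was 0.56 (adjusted p = 0.345, limma).

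Tgfb2, a ligand needed for heart development in mice and the one most dependent on betaglycan, read 0.18, 0.57, 0.09, 0.14 and 0.61 in the Ctrl hearts. In MR-Cardio hearts it ran from 0.09 through 1.43 to 1.91. The same mice were high as for Tgfb3: mice 3, 4, 5 and 7 read 1.43 to 1.91, and mice 1, 2 and 6 read 0.09 to 0.50, inside the control range. With that spread the difference of 0.80 ± 0.34 did not pass (adjusted p = 0.124, limma), and its 95% confidence interval ran from 0.09 to 1.51. It was 0.39 without the 5 arrays of low spike-in ratio, which include mice 3, 4 and 7 (adjusted p = 0.579, limma).

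Tgfb1, the ligand most often measured in fibrosis, went the other way without passing the test. Its ratios were −0.47, −0.04, −0.64, −0.27 and −0.11 in Ctrl hearts, and −0.71 to −0.40 with a median of −0.61 in MR-Cardio hearts. The groups overlapped, and the difference was −0.25 ± 0.10 (adjusted p = 0.0957, limma), with an interval from −0.45 to −0.05. The value was −0.24 without the 5 arrays (adjusted p = 0.323, limma).

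Tgfbr1, the type I receptor that phosphorylates Smad2 and Smad3, separated the untreated genotypes fully as the average of its 4 probes. It read 0.25, 0.39, 0.43, 0.17 and 0.21 in Ctrl hearts and ran from 0.74 through 0.86 to 1.76 in MR-Cardio hearts. All 7 MR-Cardio hearts lay above every Ctrl heart, those of mice 3, 4 and 7 at 1.59 or more and the other 4 at 0.86 or less. The difference was 0.87 ± 0.18 (adjusted p = 0.00264, limma), and it was 0.50 (adjusted p = 0.0401) without the 5 arrays of low spike-in ratio, which include those 3 mice.

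Tgfbr2, the type II receptor that binds ligand first, read −0.04, 0.08, −0.11, −0.15 and −0.04 in Ctrl hearts and ran from 0.11 through 0.59 to 0.81 in MR-Cardio hearts. Again all 7 lay above every Ctrl heart, mice 2, 6 and 1 lowest at 0.11, 0.18 and 0.32. The difference was 0.56 ± 0.11 (adjusted p = 0.00184, limma), and 0.36 (adjusted p = 0.0403) without the 5 arrays. With probes averaged per gene, Tgfbr1 and Tgfbr2 were the members whose groups did not overlap, a pattern that 6.97% of all genes showed in this comparison.

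**Figure D1:**
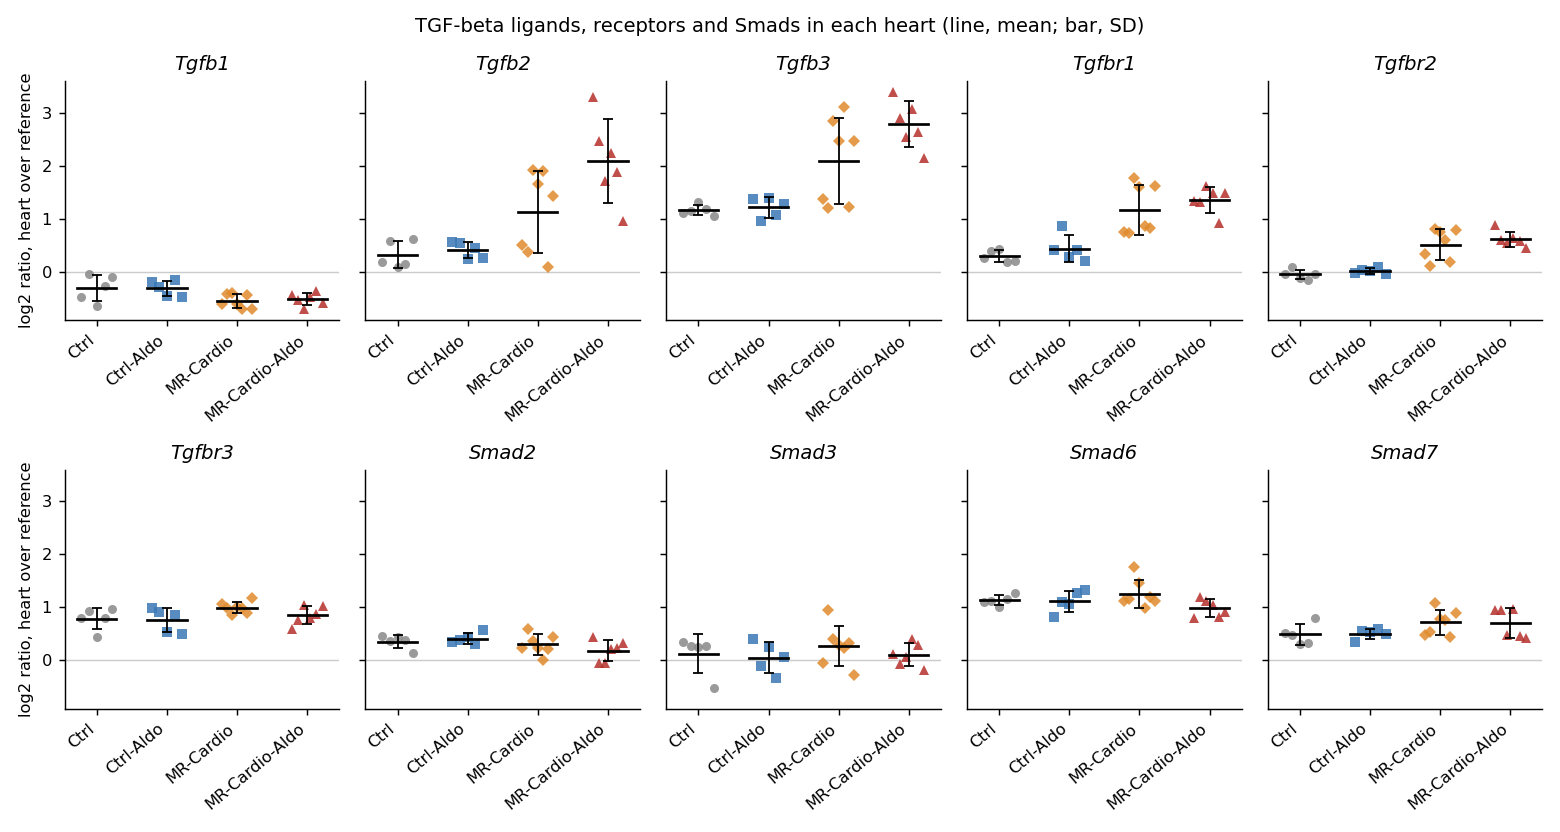
Log2 ratio of heart over the reference pool for each of the 10 members, 1 point per mouse, in Ctrl (n = 5), Ctrl-Aldo (n = 5), MR-Cardio (n = 7) and MR-Cardio-Aldo (n = 6) hearts, with the group mean (line) and SD (bar). Tgfb2 and Tgfb3 form a high and a low set of mice in untreated MR-Cardio hearts, Tgfbr1 and Tgfbr2 lie above the Ctrl range in all 7, and the Smads overlap between groups.

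Tgfbr3 and the Smads moved little. Tgfbr3 read 0.79 ± 0.20 (SD, n = 5) in Ctrl and 0.99 ± 0.11 (n = 7) in MR-Cardio hearts, a difference of 0.21 with an interval from −0.01 to 0.42 (adjusted p = 0.202, limma). Smad7, the inhibitor that blocks the type I receptor, read 0.49 ± 0.20 (n = 5) and 0.71 ± 0.24 (n = 7), a difference of 0.23 with an interval from −0.04 to 0.49 (adjusted p = 0.257). Its highest MR-Cardio values, 1.08 and 0.90, came from mice 3 and 7. Smad6, an inhibitor best known for damping signals of bone morphogenetic proteins (BMPs), differed by 0.13 ± 0.12 (adjusted p = 0.518). The signal carriers Smad2 and Smad3 differed by −0.05 ± 0.10 and 0.15 ± 0.18 (adjusted p = 0.778 and 0.656, limma). Leaving out the 5 arrays gave 0.19 for Tgfbr3, 0.07 for Smad7, −0.014 for Smad6, −0.09 for Smad2 and 0.25 for Smad3, and none of them passed. The intervals over all arrays, −0.26 to 0.15 for Smad2 and −0.23 to 0.53 for Smad3, bound a difference in RNA level and say nothing of phosphorylated protein, which carries the signal.

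**Figure D2:**
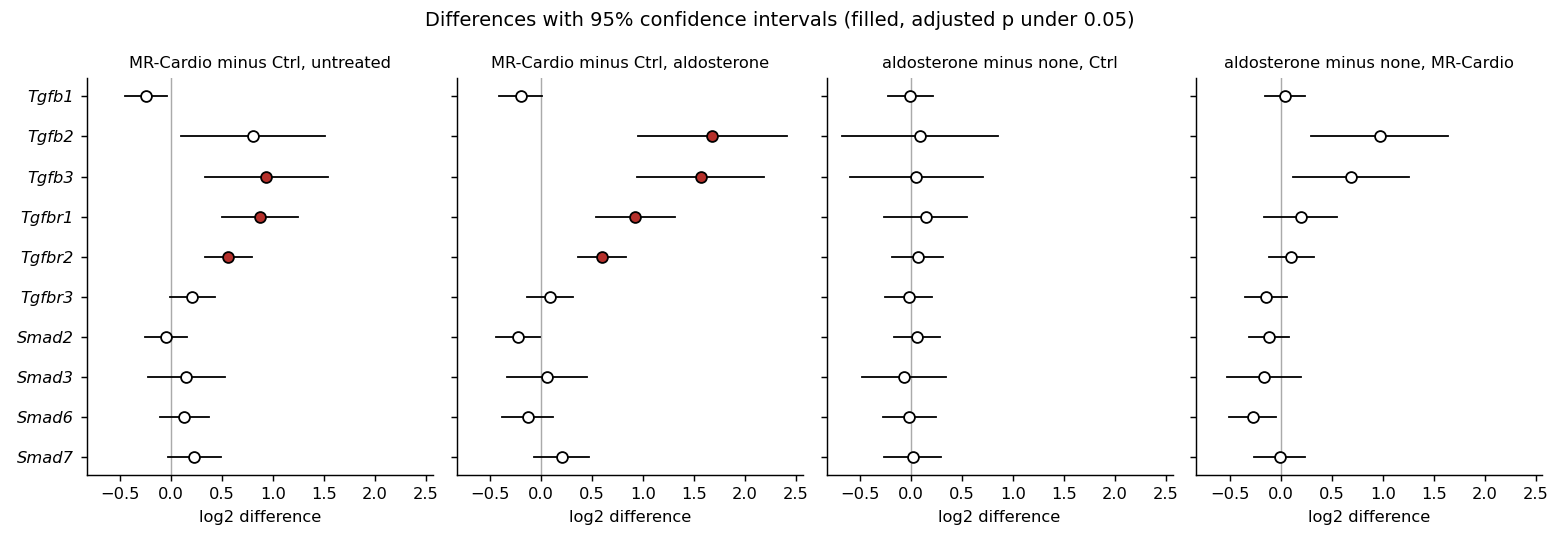
Log2 difference of each member with its 95% confidence interval in 4 comparisons, filled where the adjusted p was under 0.05. The filled points are Tgfb3, Tgfbr1 and Tgfbr2 without aldosterone and Tgfb2, Tgfb3, Tgfbr1 and Tgfbr2 under aldosterone, and no point is filled for aldosterone against none.

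Under aldosterone, 4 of the 10 members rose in MR-Cardio-Aldo against Ctrl-Aldo hearts and 0 fell, against 25.1% of all genes in either direction, 10.7% higher and 14.4% lower. Tgfb2 rose 3.20-fold, Tgfb3 2.96-fold, Tgfbr1 1.90-fold and Tgfbr2 1.51-fold. With probes averaged per gene, all 4 separated the genotypes with no overlap, as 16.1% of all genes did here. The other ligand, the co-receptor and the Smads did not pass.

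Tgfb2 read 0.56, 0.53, 0.24, 0.45 and 0.25 in Ctrl-Aldo hearts and ran from 0.95 through 2.05 to 3.29 in MR-Cardio-Aldo hearts. Each of the 6 MR-Cardio-Aldo hearts lay above the control range, unlike the split seen without aldosterone, and the difference was 1.68 ± 0.35 (adjusted p = 0.00134, limma). Tgfb3 read 1.37, 0.95, 1.39, 1.08 and 1.27 in Ctrl-Aldo hearts and 2.14 to 3.39 with a median of 2.77 in MR-Cardio-Aldo hearts. Mouse 1 was highest and mouse 6 lowest for both ligands, and the Tgfb3 difference was 1.57 ± 0.30 (adjusted p = 0.000615, limma).

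Tgfbr1 read 0.41, 0.85, 0.27, 0.42 and 0.21 in Ctrl-Aldo hearts and 0.91 to 1.61 with a median of 1.41 in MR-Cardio-Aldo hearts. Mouse 2 of the Ctrl-Aldo group and mouse 5 of the MR-Cardio-Aldo group were the closest pair, at 0.85 and 0.91, and the difference was 0.92 ± 0.19 (adjusted p = 0.000966, limma). Tgfbr2 read −0.03, 0.03, 0.01, 0.09 and −0.05 in Ctrl-Aldo hearts and 0.44 to 0.87 with a median of 0.59 in MR-Cardio-Aldo hearts. Its groups stood well apart, by 0.60 ± 0.11 (adjusted p = 0.000637, limma). Without the 5 arrays all 4 members passed, with differences of 1.93 for Tgfb2, 1.66 for Tgfb3, 0.86 for Tgfbr1 and 0.64 for Tgfbr2. In that setting 23% of all genes passed, 10.2% in the higher direction.

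Tgfb1 differed by −0.20 ± 0.10 (adjusted p = 0.159) and Smad2 by −0.23 ± 0.10 (adjusted p = 0.117) under aldosterone, both lower without passing. Tgfbr3, Smad3, Smad6 and Smad7 differed by −0.13 to 0.20, with adjusted p from 0.285 to 0.862 (limma). Smad7 was high, between 0.94 and 0.97, in MR-Cardio-Aldo mice 1, 2 and 4, and between 0.42 and 0.49 in mice 3, 5 and 6.

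To test whether members of one role parted from each other, the difference between 2 members was taken within each heart and compared between genotypes, for 12 pairs with and without aldosterone, a test added after the data had been seen. Under aldosterone the gap of Tgfb2 over Tgfb1 was 2.60 ± 0.74 (SD, n = 6) in MR-Cardio-Aldo and 0.72 ± 0.08 (n = 5) in Ctrl-Aldo hearts, wider by 1.88. That of Tgfb3 over Tgfb1 was wider by 1.77, and that of Tgfbr3 over Tgfbr1 was lower by a difference of −0.83. In each of these 3 pairs the genotypes did not overlap, and the exact permutation test gave its smallest possible p for 6 against 5 mice, 0.0043, or 0.0346 adjusted over the 24 tests. The genotypes were not shown to differ in the gap between Tgfb3 and Tgfb2, at −0.11 under aldosterone (exact permutation p = 0.615). Without aldosterone 0 of the 12 pairs passed after adjustment, the smallest adjusted p being 0.0707 (exact permutation), although 5 had an unadjusted p under 0.05. In the fewer hearts left without the 5 arrays, the same 3 gaps under aldosterone differed by 2.12, 1.85 and −0.80 and still did not overlap. With 4 against 5 mice they had the smallest p that these numbers allow, 0.0159, and an adjusted p of 0.0952, so 0 of the 24 tests passed, 5 having an unadjusted p under 0.05 (exact permutation).

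Aldosterone against none changed 0 of the 10 members in either genotype over all arrays, and Tgfb2 passed in MR-Cardio hearts without the 5 arrays. In control hearts 0 of 21892 genes passed, or 0%, while 1036 had an unadjusted p under 0.05 (limma). The member differences ran from −0.07 for Smad3 to 0.14 for Tgfbr1, and the widest interval, that of Tgfb2, ran from −0.68 to 0.85. In MR-Cardio hearts 1.43% of all genes passed, 0.95% higher and 0.484% lower. These 314 genes became 0 with only the 2 compared groups in the fit, where 2562 had an unadjusted p under 0.05 (limma). With 1 mouse left out they ran from 138, without MR-Cardio-Aldo mouse 4, to 697, without MR-Cardio mouse 5. The groups with and without aldosterone overlapped for all 10 members in both genotypes, and for all but 1.61% of genes in Ctrl and 0.544% in MR-Cardio hearts. Tgfb2 was 2.09 ± 0.79 (SD, n = 6) with aldosterone and 1.12 ± 0.78 (n = 7) without, a difference of 0.97 ± 0.32 (SE) whose adjusted p was 0.146 (limma). It was 1.62 without the 5 arrays (adjusted p = 0.0442, limma), where 1.08% of all genes passed. That setting drops MR-Cardio mice 3, 4 and 7, at 1.43 to 1.91, and MR-Cardio-Aldo mice 4 and 6, at 2.23 and 0.95. The Tgfb2 mean then fell to 0.71 in MR-Cardio and rose to 2.33 in MR-Cardio-Aldo hearts (n = 4 each). Tgfb3 differed by 0.69 ± 0.27 (adjusted p = 0.239), Smad6 by −0.28 ± 0.11 (adjusted p = 0.236), and the other 7 by −0.17 to 0.19. These values and the genotype differences share the MR-Cardio hearts, so the split between mice described above enters both. The test of whether aldosterone acted differently in the genotypes passed for 0 of 21892 genes (1197 at an unadjusted p under 0.05, limma), and Tgfb2 had the largest member estimate, 0.88 ± 0.49 (adjusted p = 0.922), or 1.53 (adjusted p = 0.446) without the 5 arrays. In terms of order, the 4 group means of Tgfb2, Tgfb3, Tgfbr1 and Tgfbr2 all ran Ctrl, Ctrl-Aldo, MR-Cardio, MR-Cardio-Aldo from low to high, also without the 5 arrays, and over all arrays neighbours of the same genotype did not pass the test. Ctrl-Aldo and MR-Cardio hearts, which differ in both genotype and treatment, were not compared.

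Several members had more than 1 probe, and they did not all give the same picture. The 2 Tgfb2 probes followed each other closely over the 23 mice (r = 0.98) and gave untreated differences of 0.69 and 0.92. Of the 4 Tgfbr1 probes, A_55_P2137206 and A_55_P2137211 passed in both genotype comparisons, with 0.78 ± 0.13 and 1.17 ± 0.23 without aldosterone (adjusted p = 0.000412 and 0.00219 over all probes, limma). The probes A_55_P1960901 and A_55_P1960906 gave 0.80 ± 0.40 and 0.73 ± 0.32 and did not pass (adjusted p = 0.215 and 0.152). On both of these probes the genotypes overlapped, without and with aldosterone. Untreated MR-Cardio hearts ran down to 0.15 and −0.10, while Ctrl hearts reached 1.01 and 0.65. Pairs of Tgfbr1 probes correlated from 0.28 to 0.86. For Tgfbr2, probe A_55_P2107288 gave 0.72 ± 0.11 (adjusted p = 0.000184) and probe A_51_P450573 gave 0.40 ± 0.13 without passing (adjusted p = 0.0512, limma). On A_51_P450573 the untreated groups overlapped, with MR-Cardio hearts down to −0.28 and Ctrl hearts up to −0.08. The 2 Smad3 probes barely followed each other (r = 0.10), and A_55_P2101001, with a mean ratio of −0.35 ± 0.13 (SD, n = 23), lay in the range of the blank spots. In non-transgenic hearts Tgfbr1 probe A_55_P2137206 (−0.17 to 0.04) and Tgfbr2 probe A_51_P450573 (−0.40 to 0.03) also lay in that range. Tgfb1, Tgfb3, Tgfbr3, Smad2, Smad6 and Smad7 rested on 1 probe each.

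**Figure D3:**
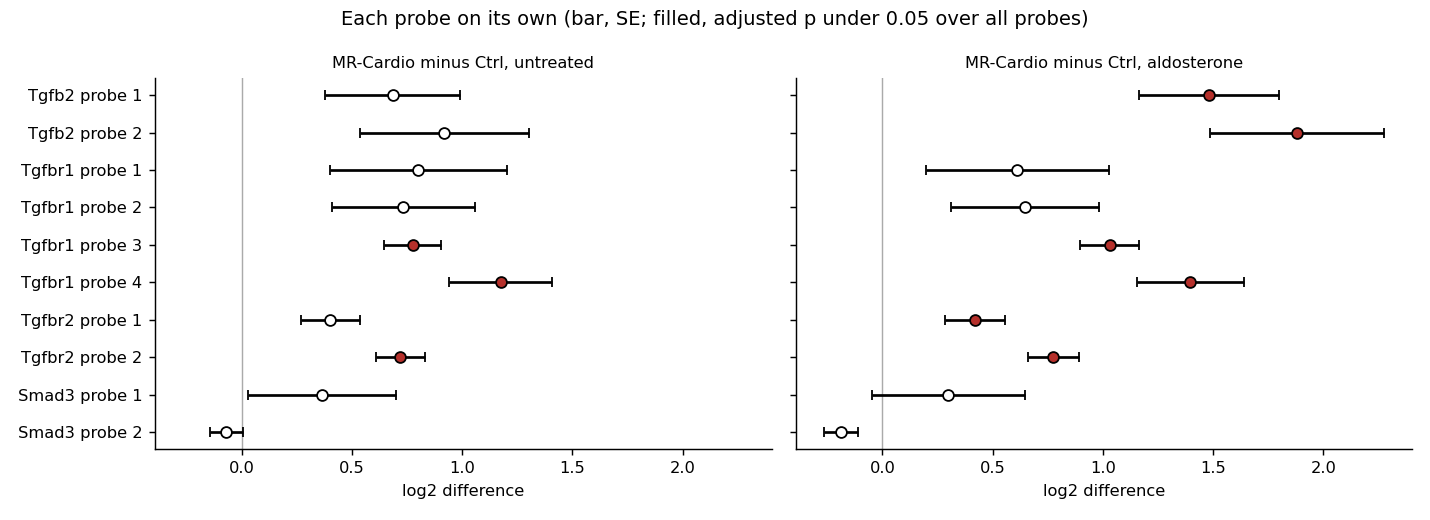
Log2 difference between MR-Cardio and Ctrl hearts for each probe of the 4 members with more than 1 probe, without and with aldosterone, with its SE and filled where the adjusted p over all probes was under 0.05. Probes of Tgfbr1 are numbered in the order A_55_P1960901, A_55_P1960906, A_55_P2137206 and A_55_P2137211, and only the last 2 are filled, with 0.78 and 1.17 without aldosterone.

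With the 4 groups pooled, levels of Tgfb2, Tgfb3 and Tgfbr2 went together from mouse to mouse, also after the group means were removed. The spread of Tgfb2 was widest in MR-Cardio and MR-Cardio-Aldo hearts (SD 0.77 and 0.79), against 0.25 in Ctrl and 0.15 in Ctrl-Aldo hearts. The 2 ligands did not go together among non-transgenic hearts. In Ctrl and in Ctrl-Aldo, mouse 3 was lowest for Tgfb2 (0.09 and 0.24) and highest for Tgfb3 (1.31 and 1.39). The Pearson correlation of Tgfb2 and Tgfb3 within groups was 0.88, of Tgfb2 and Tgfbr2 0.86, and of Tgfb3 and Tgfbr2 0.82, over 23 mice, each on its own array against the common reference. Over the 18 mice without the 5 arrays these were 0.83, 0.88 and 0.76. Smad7 followed them more loosely, at 0.78 with Tgfb2 and 0.71 with Tgfbr2, or 0.72 and 0.56 without the 5 arrays. Tgfb1 did not follow Tgfb2 (0.14), Tgfb3 (−0.16) or Tgfbr2 (0.03). Tgfbr1 followed loosely within groups, at 0.41 with Tgfb2, 0.41 with Tgfb3 and 0.66 with Tgfbr2. The mean ratio of the fibroblast markers, described below, followed within groups as closely. It correlated at 0.86 with Tgfb2, 0.82 with Tgfb3 and 0.91 with Tgfbr2. The mean spike-in ratio of the array correlated within groups at −0.67 with Tgfbr1 and −0.49 with Tgfbr2. With Tgfb3 and Tgfb2 that correlation was −0.33 and −0.19. The part of the array in the correlations between members was not tested. These are descriptions, since all 10 genes were read on the same arrays.

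By the correlation of the log2 ratio over all 23 mice, the genes most like each member that passed were named. Those most like Tgfb2 were Pdlim5 (r = 0.96), Cald1 (0.96) and Srpx2 (0.95). Those most like Tgfb3 were Itgb5 (0.97), Rras (0.97) and Ccn2 (0.96). Tgfbr2 was most like Sh2b2 (0.97), Farp1 (0.96) and Dpt (0.96), and Tgfbr1 was most like Dse, Txnl1 and Pkd1 (0.92 each). The likeness to Tgfbr1 fell off within groups, to between 0.70 and 0.74, while for the other 3 members it stayed at 0.86 or above.

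**Figure D4:**
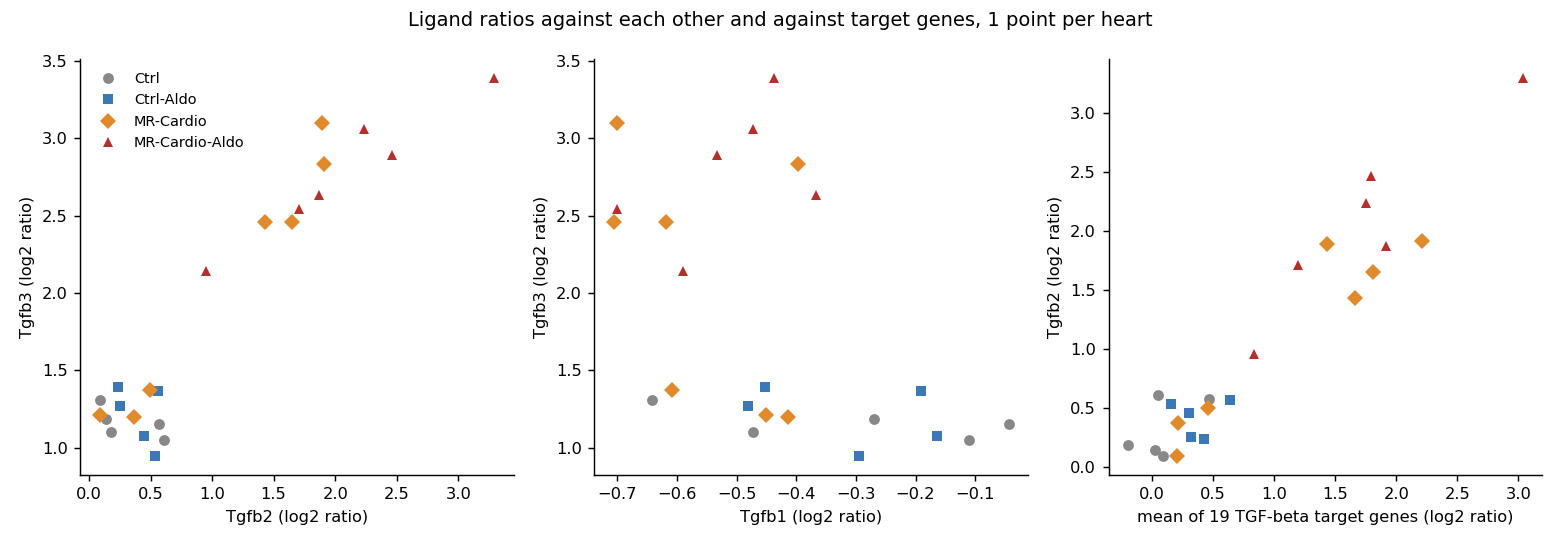
Log2 ratios of Tgfb3 against Tgfb2, Tgfb3 against Tgfb1, and Tgfb2 against the mean of 19 TGF-beta target genes, 1 point per heart and 1 colour per group. Over all hearts Tgfb2 and Tgfb3 rise together, up to the highest MR-Cardio-Aldo heart (3.29 and 3.39), but not within the control hearts. Tgfb1 shows no such rise, and MR-Cardio mice 1, 2 and 6 sit among the controls.

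Among 19 measured genes known to be induced by TGF-beta, 5 rose and 0 fell without aldosterone, and 9 rose and 0 fell under aldosterone. Of all genes 5.79% and 10.7% rose. Itgb5, Skil and Pmepa1, described with other groups, are among these calls. With the 5 arrays left out, Lox alone of the 19 rose without aldosterone, with a list median of 0.31, against 2.15% of all genes that rose, and 16 rose with it, with a median of 1.39, against 10.2%. With 1 mouse left out, the count without aldosterone ran from 3 (without Ctrl mouse 1, 3 or 4 or MR-Cardio mouse 4 or 7) to 10 (without MR-Cardio mouse 2 or 6). The count under aldosterone ran from 6 to 15, the highest being 13 and 15 without MR-Cardio-Aldo mice 3 and 6. Over all arrays the median difference was 0.95 and 1.17, against −0.01 and −0.04 over all genes. Lox, which cross-links collagen, rose by 2.95 ± 0.42 (adjusted p = 6.2e-05) and by 4.06 ± 0.43 (adjusted p = 1.3e-06) in the 2 comparisons (limma). Timp1, which blocks matrix metalloproteinases, rose by 2.14 and 2.32, and Sphk1, which makes sphingosine 1-phosphate, by 0.95 and 1.17. Ccn2 (connective tissue growth factor) rose by 2.94 ± 0.56 under aldosterone (adjusted p = 0.000644), as did Fn1 (fibronectin) by 1.55, Col5a1 by 1.08 and Ccn1 by 0.97. The mean ratio of the 19 genes was 1.43 or above in MR-Cardio mice 3, 4, 5 and 7 and 0.45 or below in mice 1, 2 and 6, the same mice that were high and low for Tgfb2 and Tgfb3. The list averaged 0.08 in Ctrl and 1.14 in MR-Cardio hearts, or 0.58 in the 4 MR-Cardio hearts left without mice 3, 4 and 7. Of 10 BMP target genes, which include Smad6 and Smad7, Id4 rose in both comparisons (by 1.40 and 2.26) and the other 9 did not pass. That count under aldosterone lies near the 10.7% of all genes that rose. The untreated Id4 difference was 0.89 without the 5 arrays and did not pass (adjusted p = 0.0559, limma).

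Of 20 measured genes that store, release or trap ligand, with Itgb5 and Ltbp2 also in the list of target genes, 6 rose and 1 fell without aldosterone, and 9 rose and 1 fell with it, with a median difference of 0.51 in both. Of all genes 13.6% and 25.1% passed in either direction. Without the 5 arrays 2 rose (Furin and Fst) and 0 fell without aldosterone, with a median of 0.22. With it 12 rose and 1 fell, with a median of 0.59. Of all genes 4.96% and 23% then passed in either direction. Furin, the protease that cleaves the ligand precursors, rose by 0.90 ± 0.10 and 1.28 ± 0.10. Thbs1, which can activate latent TGF-beta, rose by 1.46 and 1.61, and Itgb5, a subunit of an integrin that can release it, by 0.65 and 1.01. Ltbp4, a latent TGF-beta binding protein, rose by 0.62 without aldosterone, and Lrrc32, which holds latent ligand at the cell surface, by 0.42 with it. Itgb6, the subunit of another activating integrin, fell by 1.31 and 2.47. Among traps, Bgn (biglycan) rose by 0.99 and 1.20, and Fst (follistatin), which binds activins and myostatin, by 1.74 and 2.34. Fstl3, a relative of Fst, Chrd, which binds BMPs, and Itgb8 rose under aldosterone, by 1.02, 0.51 and 1.14, and Chrd did not pass without the 5 arrays (adjusted p = 0.0514, limma).

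Of 13 other ligands of the family, 4 rose and 1 fell without aldosterone and 4 rose and 0 fell with it, against 13.6% and 25.1% of all genes in either direction. The count under aldosterone lies near the share of all genes in either direction. In the higher direction the shares were 5.79% and 10.7%. In hearts without aldosterone 0 of the 13 passed when the 5 arrays were left out (5 at an unadjusted p under 0.05, limma), and under it 4 rose. Of all genes 4.96% and 23% passed in that setting. Mstn (myostatin), a muscle ligand that restrains growth, rose by 1.68 and 2.66, and Inhba and Inhbb, the activin subunits, rose by 0.97 and 1.80 and by 0.79 and 0.84. Bmp2 rose by 0.33 and 0.50, and Bmp10, an atrial ligand, fell by 0.82 without aldosterone. Inhba also rose with aldosterone within MR-Cardio hearts, by 1.28 ± 0.30 (adjusted p = 0.033, limma), as did Ccn1 by 0.86 ± 0.21 (adjusted p = 0.0426) and Id4 by 1.12 ± 0.27 (adjusted p = 0.0364). With only the 2 compared groups in the fit none of the 3 passed (adjusted p = 0.226, 0.176 and 0.202). When the 5 arrays were left out, Inhba and Id4 passed (adjusted p = 0.0473 and 0.0255) and Ccn1 did not (0.0655, limma).

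Without aldosterone, the share of receptors and Smads outside the 10 members that passed the test lay near that of all genes. Of all genes 13.6% passed without and 25.1% with aldosterone, in either direction. Of 11 other receptors and co-receptors, Acvrl1, an endothelial type I receptor, rose by 0.30 without aldosterone and Bmpr2 by 0.24 with it. Of 14 other Smads and partners, Skil, a repressor of Smad complexes that TGF-beta induces, rose by 0.50 without aldosterone and Pmepa1, which binds Smads, by 0.59 with it, while Usp15, a deubiquitinase, fell by 0.32 and 0.37. Skil and Pmepa1 are also in the list of target genes. When the 5 arrays were left out, 0 of the 11 receptors and 0 of the 14 Smads and partners passed without aldosterone (2 and 3 at an unadjusted p under 0.05, limma). Under aldosterone Bmpr2 then did not pass (adjusted p = 0.057), while Skil, Tgif1 and Pmepa1 rose and Usp15 fell (limma). Of all genes 4.96% and 23% passed in that setting. Over all arrays the median difference of these receptors was 0.04 and 0.01, and of these Smads and partners 0.00 and 0.06. Single genes spread wider. The receptors ran from −0.37 to 0.84 without and from −0.29 to 1.48 with aldosterone. The Smads and partners ran from −0.32 to 0.62 and from −0.65 to 0.59. At an unadjusted p under 0.05 (limma) there were 1 and 4 of the receptors, and 4 and 7 of the Smads and partners.

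**Figure D5:**
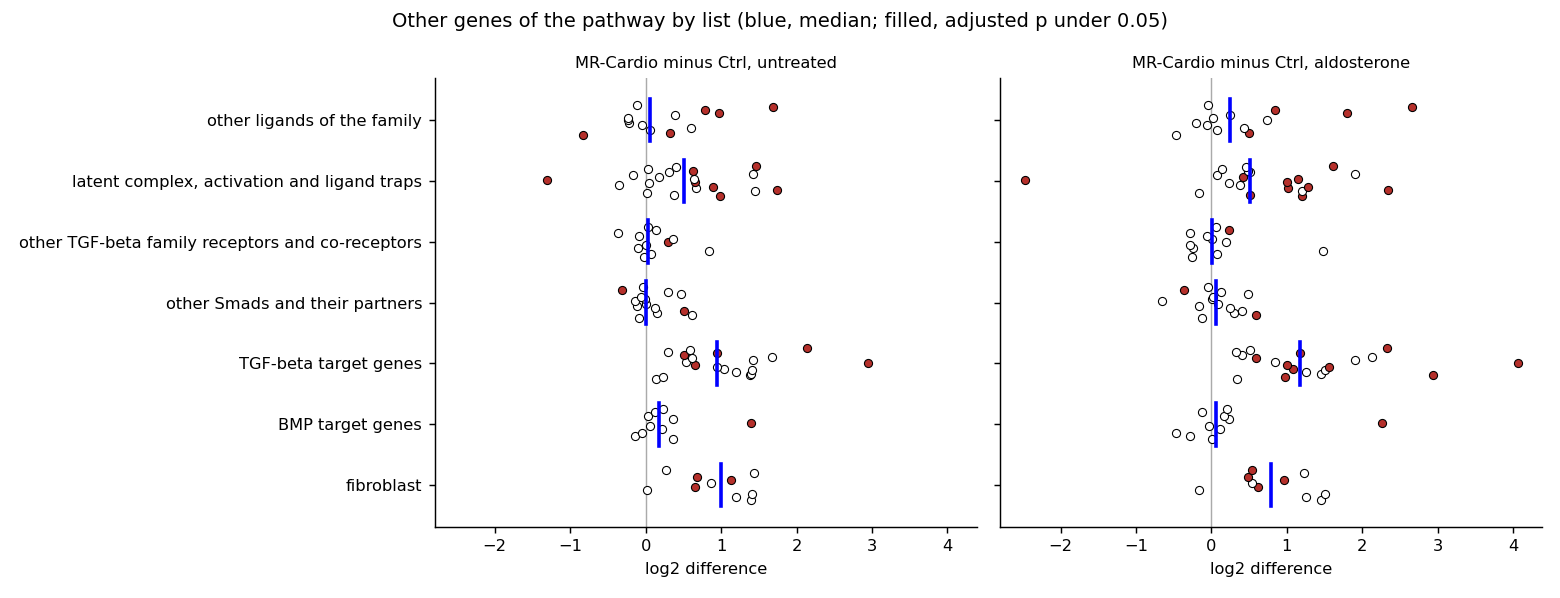
Log2 difference between MR-Cardio and Ctrl hearts for the genes of 7 lists without and with aldosterone, 1 point per gene, filled where the adjusted p was under 0.05, with the median of the list in blue. The medians of TGF-beta target genes (0.95 and 1.17) lie to the right of 0, and those of the other receptors and of the other Smads lie near 0.

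Markers of fibroblasts, cells that make and answer TGF-beta, moved in the same hearts. Of 10 fibroblast markers, Pdgfra, Dpt and Mfap5 rose without aldosterone, and Pdgfra, Dpt, Tcf21 and Mfap5 with it. The shares of all genes to set beside the marker counts here were 13.6% and 25.1% in either direction. In the higher direction they were 5.79% and 10.7%. The median difference of the list was 1.00 and 0.79. The mean ratio of the list ran from 0.70 to 1.31 in Ctrl, 1.01 to 1.48 in Ctrl-Aldo, 0.98 to 2.86 in MR-Cardio and 1.36 to 3.04 in MR-Cardio-Aldo hearts. MR-Cardio mice 3, 4, 5 and 7 read 1.88 or above and mice 1, 2 and 6 read 1.26 or below. The list averaged 0.96 in Ctrl and 1.87 in MR-Cardio hearts, or 1.30 in the 4 MR-Cardio hearts left without mice 3, 4 and 7. Without the 5 arrays 1 of the 10 markers (Mfap5) rose without aldosterone and 8 rose with it, against 2.15% and 10.2% of all genes. The collagens Col1a1, Col1a2 and Col3a1 are also in the list of TGF-beta target genes. Pln, a regulator of calcium uptake, was the 1 of 8 cardiomyocyte markers that fell, by 0.62 and 1.11, and the other 7 did not pass. Macrophage markers passed in 0 of 9 without aldosterone and 1 of 9 (Fcgr1) with it, endothelial markers in 0 of 8 in both, and of 8 mural cell markers Pdgfrb and Cspg4 rose without and Cspg4 and Notch3 with aldosterone. Of 5 platelet markers Pf4 rose without aldosterone, and of 6 lymphocyte markers Cd3e and Ms4a1 fell without and Cd3e with it. Without the 5 arrays the untreated calls of Pln, Pdgfrb, Cspg4 and Pf4 and the call of Fcgr1 under aldosterone were lost, Cd3e and Ms4a1 fell in both comparisons, and Tek and Cd8a, of the endothelial and lymphocyte markers, fell under aldosterone. In that setting 4.96% and 23% of all genes passed in either direction. The part of cell makeup in the differences of the 10 members was not tested.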

How the data were processed

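The authors' deposited values are log2 ratios of heart (Cy5) over reference (Cy3), 1 per probe and array, with the dyes per the labels. The submitters' processing notes name Agilent Feature Extraction, version 10.7.3.1. How background was corrected and dyes normalized is not stated in the sources read. Base 2 and the direction were inferred: ratios span −12.71 to 8.80, the heart gene Myh6 lay above 0 and the brain genes Gfap and Nefl below 0 on all 23 arrays. Every column was assigned to 1 of the 23 mice.

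Control probes (56) were left out, and the 30625 probes with 1 gene symbol were averaged to 21892 genes. Groups were compared with limma 3.58.1 (R 4.3.3; lmFit and eBayes, 1 mean per group, all 23 arrays, no further normalization), two-sided, with Benjamini-Hochberg adjustment over all genes and a threshold of 0.05. The fit was tested on simulated data. Differences between 2 members within a heart were compared with exact two-sided permutation tests (scipy 1.17.1). Promoter sequences are RefSeq's (GRCm38.p6), with entries used for 6 members. The number of mice limits the precision, and p-values weigh group differences against the spread between mice of the same group. They do not cover a difference of array or reference between genotypes.

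The members, the gene lists (6 of the pathway and 8 of cell type markers) and the tests were chosen with earlier results of these data known. All 10 members are named, list genes where they passed in a comparison, and the 3 genes most correlated with each member that passed. The lists are counted over the genes measured, and 4 of their genes were not analysed here.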

Additional observations from a re-analysis of the deposited data

Results flagged for a closer look

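In the 40 combinations of member and group, 2 hearts stood apart from the rest of their group by Dixon's criterion, and chance alone picks about 1 in 20 groups. Both values came from Ctrl mouse 5. Its Smad3 ratio was −0.53, and the nearest Ctrl heart read 0.26. Its Smad2 ratio was 0.14, and the nearest read 0.37. Without this mouse the untreated Smad3 difference was −0.014 in place of 0.15, and neither passed.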

How the results depend on the processing

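Each processing choice was changed in turn, and each mouse left out in turn. The number of members called stayed between 2 and 4 without aldosterone and between 3 and 5 under it, and at 0 for aldosterone in Ctrl hearts and for the interaction. For aldosterone in MR-Cardio hearts it moved from 0 to 1 without the 5 arrays of low spike-in ratio, where Tgfb2 differed by 1.62 (adjusted p = 0.0442, limma). With 1 mouse left out, the counts ran from 2 to 4 without aldosterone, from 4 to 4 under it and from 0 to 0 in the other 3 comparisons. Of 585 single-gene values under a changed choice, 551 kept direction and side of the threshold, 10 lost a call, 4 gained one and 20 turned sign. Of 690 with 1 mouse left out, 636 kept both, 9 lost a call (all Tgfb3 without aldosterone), 2 gained one and 43 turned sign, and no call turned. Over all genes, the 2978 calls without aldosterone became 1086 without the 5 arrays and 1353 at a threshold of 0.01. The 314 for aldosterone in MR-Cardio became 0 with only the compared groups, 154 with the replicate block, 680 and 76 at thresholds of 0.1 and 0.01, and 94 of the 16419 genes with higher ratios. The 5487 under aldosterone became 3151 at 0.01, and the 0 for aldosterone in Ctrl became 8 with only the compared groups. Over the same 16419 genes, 1614 were called without aldosterone. The causes were not tested.

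Tgfb3 without aldosterone lost its call with only the compared groups in the fit (adjusted p = 0.105), with the spike-in offset as a covariate (0.0753) and without the 5 arrays. The last 2 settings were chosen after the data had been seen. Tgfb2 without aldosterone passed with array quality weights (0.89, adjusted p = 0.044) and without MR-Cardio mouse 6 (0.97, adjusted p = 0.0493). Tgfb1 passed under aldosterone after quantile normalization (−0.25, adjusted p = 0.0491) and without aldosterone when Ctrl mouse 3 was left out (−0.33, adjusted p = 0.0264). Smad2 passed under aldosterone with array weights (−0.26, adjusted p = 0.0403). Tgfbr1 lost both calls with its most variable probe (0.80 and 0.61).

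Values (log2 differences) that turned sign were uncalled. For Smad7, aldosterone in MR-Cardio became 0.022 after quantile normalization, 0.020 with the replicate block and 0.149 without the 5 arrays, and its interaction 0.0062, 0.0057 and 0.135. The Tgfbr1 interaction became −0.188 with the most variable probe, −0.015 with weights, −0.043 with the offset, and −0.188 and −0.085 with probes A_55_P1960901 and A_55_P1960906. That of Tgfbr2 became −0.030 with weights and −0.0042 with the offset. Smad6 without aldosterone became −0.014 without the 5 arrays. For aldosterone in Ctrl, Tgfbr2 became −0.028 with its most variable probe, A_55_P2107288, and Tgfbr1 −0.0097 with A_55_P2137206. Smad3 by probe A_55_P2101001 became −0.069 without and −0.189 under aldosterone, and 0.078 for aldosterone in Ctrl.

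With 1 mouse left out, aldosterone in Ctrl ran from −0.235 to 0.025 for Smad3, −0.068 to 0.058 for Smad6, −0.028 to 0.094 for Smad7, −0.092 to 0.057 for Tgfb1 and −0.110 to 0.039 for Tgfbr3. Smad7 for aldosterone in MR-Cardio ran from −0.063 to 0.051. The interaction ran from −0.191 to 0.069 for Smad3, −0.105 to 0.037 for Smad7, −0.017 to 0.132 for Tgfb1, −0.020 to 0.156 for Tgfbr1 and −0.029 to 0.087 for Tgfbr2. Smad3 ran from −0.014 to 0.239 without and −0.042 to 0.141 under aldosterone.

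Sample numbers recur across groups but stand for different mice. Over 31 pairs of the same number the median correlation of deviations from the group means was −0.01, so the numbers do not pair the mice. With the number as a replicate block the members called stayed at 3 and 4 and no member's call changed. Leaving out the genes with the lowest ratios, so that 16419 were tested, removed Tgfb1 and kept 9 members. Signal over background was not used here, which limits what can be said of weak genes.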
